A study of Mus musculus with 10 samples.

Results

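Membrane mucins are glycoproteins that stay anchored in the apical membrane of epithelial cells, and they are described here for mouse intestinal crypt cells. The set named 4 genes, Muc1, Muc4, Muc13 and Muc20, measured on Affymetrix MoGene 2.0 ST arrays. Of these, 3 had a probe set of their own and were among the 22180 genes with one, while Muc20 was not. Where a gene had several probe sets the brightest on average was taken. The set was chosen by measured values of these arrays, namely a lower Muc4 signal in Flattop cells beside higher signals of secreted mucus genes, so the Flattop against Lgr5_high values of the members and of the secreted mucus genes are given as a description, without a test.

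The data compared 4 arrays of intestinal crypt cells that express Flattop (encoded by Cfap126) with 6 arrays of stem cells sorted for high Lgr5 and GFP (Lgr5_high). The Flattop cells came from FltpT2AiCre mice crossed with the Gt(ROSA)26mTmG reporter, on a mixed C57BL/6J, CD1 and 129/SvJ background. The Lgr5_high cells came from C57BL/6J mice with the Lgr5-EGFP-IRES-creERT2 allele. All mice were 3 to 6 months old, and cells of both groups were isolated by fluorescence-activated sorting. The Flattop cells were found through a Cre driven by the Flattop locus and a reporter that changes membrane fluorescence, and the sort gates were not known here. Group, genotype and strain coincide and cannot be told apart. The labels do not say whether replicates came from separate animals, so the spread between arrays may be partly technical.

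Deposited values were log2 intensities after robust multi-array averaging (RMA), with array medians between 4.56 and 4.77 and a median over all values of 4.70. Pairs of Flattop arrays correlated at 0.869 to 0.941 (Pearson, all probe sets), pairs of Lgr5_high arrays at 0.854 to 0.915, and pairs across the groups at 0.825 to 0.931. Lgr5 averaged 8.37 in Flattop and 9.47 in Lgr5_high arrays, and Cfap126 averaged 5.42 in Flattop and 4.996 in Lgr5_high arrays. Over all genes the median difference was -0.064, and 203 of the 22180 genes passed an adjusted p of 0.05 (limma). Two-sided tests with Benjamini-Hochberg adjustment over all genes were used throughout. The number of arrays limits the precision, and no detection calls were at hand.

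Membrane mucins carry a long extracellular part rich in serine, threonine and proline that is densely O-glycosylated, a single membrane-spanning segment and a short cytoplasmic tail. They form the glycocalyx that covers the apical surface beneath the secreted mucus gel, whereas gel-forming mucins such as Muc2 are released by goblet cells. Several also take part in signalling, through their tails or through epidermal growth factor (EGF)-like domains near the membrane.

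By RefSeq (assembly GRCm38.p6), Muc4, Muc20 and Muc13 lie on chromosome 16 and Muc1 lies on chromosome 3. Muc4 and Muc20 are neighbours whose annotated spans overlap. The only probe set that the platform annotation gave for Muc20 was annotated to both Muc20 and Muc4, so its values name neither gene. The upstream sequences of Muc4, the gene whose groups parted, and of Muc13, its chromosome 16 relative whose groups did not, are shown for comparison. They are the 250 bases before the annotated start from RefSeq, GRCm38.p6, both on the plus strand, at chr16:32735636-32735885 for Muc4 and chr16:33793787-33794036 for the first of 2 annotated Muc13 starts. Capitals mark TTTAT on either strand (ATAAA where it reads on the minus strand), a core that the intestinal transcription factor Cdx2 can bind.
Muc4: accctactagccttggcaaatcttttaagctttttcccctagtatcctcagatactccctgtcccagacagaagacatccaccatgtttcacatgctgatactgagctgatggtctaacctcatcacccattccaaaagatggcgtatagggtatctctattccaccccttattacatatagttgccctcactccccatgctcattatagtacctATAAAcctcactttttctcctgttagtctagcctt
Muc13: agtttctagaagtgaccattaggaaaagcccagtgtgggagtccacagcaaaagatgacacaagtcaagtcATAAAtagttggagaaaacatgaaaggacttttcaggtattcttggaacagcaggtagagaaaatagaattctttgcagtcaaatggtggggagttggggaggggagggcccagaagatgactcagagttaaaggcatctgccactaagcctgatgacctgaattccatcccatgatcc
TTTAT was found once in each of these windows, 35 bases before the start of Muc4 and 179 bases before that of Muc13. The windows of the second Muc13 start and of Muc20 held 0, and that of Muc1 held 1, 30 bases before its start. In 32851 promoter windows of the same length, 37.3% held TTTAT on either strand. In Muc4 it overlapped TATAAA on the plus strand, which 12.4% of windows held on either strand, and Muc1 also had TATAAA, 31 bases before its start. CTTTGAT, a core of Tcf/Lef sites, was in none of the members' windows and in 3.21% of all windows. These matches describe letters only.

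Muc4, a very large membrane mucin whose EGF-like domains bind the receptor tyrosine kinase ErbB2 in rat and human cells, was lower in Flattop than in Lgr5_high cells on every array. Muc4 (Entrez gene 140474) read 7.67, 8.17, 7.98 and 8.27 log2 intensity in Flattop replicates 1 to 4. In Lgr5_high replicates 1 to 6 it read 8.94, 8.88, 8.58, 8.63, 8.84 and 8.89. The groups did not overlap, and the highest Flattop array lay 0.30 under the lowest Lgr5_high array, while the lowest value of all was that of Flattop replicate 1. The group means were 8.02 ± 0.27 in the 4 Flattop arrays and 8.80 ± 0.15 in the 6 Lgr5_high arrays (mean ± SD), a difference of -0.77 (SE 0.14), or 0.585 of the Lgr5_high intensity on a linear scale. Of all genes, 0.974% had every Flattop array under every Lgr5_high array, and nothing is read from Muc4 being one of them, because the same contrast chose it.

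The arrays fall into titles numbered 1 to 8 and titles numbered 38 to 46, and the labels do not say what the numbers mark. Muc4 differed by -0.88 among the lower-numbered arrays and by -0.66 among the higher-numbered ones. Left-out arrays moved it between -0.86 and -0.65, the smaller size being that without Flattop replicate 1. Since the choice of Muc4 and the gap between its groups fix the sign, these values describe only the size. In RNA from sorted cells in bulk, fewer cells of a type and less RNA per cell cannot be told apart.

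**Figure D1:**
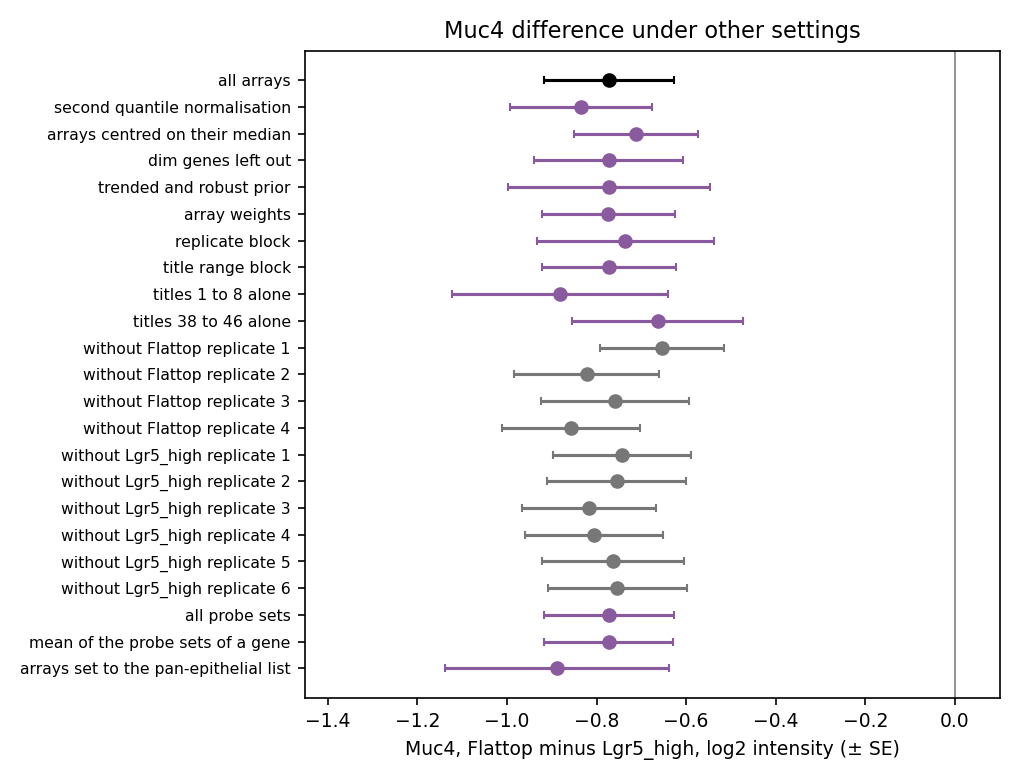
Muc4 difference, Flattop minus Lgr5_high, in log2 intensity (x axis, with its SE as the bar) with all arrays and under 22 other settings (rows), 10 of which leave out 1 array. The values lie between -0.89 and -0.65.

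Muc13, a membrane mucin of the gut surface with EGF-like domains, lay far above the median of all values in both groups. Muc13 (Entrez gene 17063) read 11.74, 11.94, 11.53 and 11.50 in Flattop replicates 1 to 4. In Lgr5_high arrays its lowest value was 10.95, its median 11.39 and its highest 11.93. The Flattop values all lay within the upper part of the Lgr5_high range or, in replicate 2, just above it, so the groups overlapped. Means were 11.68 ± 0.20 in the 4 Flattop arrays and 11.42 ± 0.34 in the 6 Lgr5_high arrays (mean ± SD), a difference of 0.26 (SE 0.19). Muc13 differed by 0.44 in the lower title range and by 0.08 in the higher one.

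Muc1, a widely expressed membrane mucin whose tail takes part in signalling, had dim signals on every array. Muc1 (Entrez gene 17829) read 3.95, 3.71, 4.14 and 3.94 in Flattop replicates 1 to 4. In Lgr5_high arrays its lowest value was 3.82, its median 4.09 and its highest 4.45. All 10 values lay under the median of all values (4.70) and the groups overlapped, and whether this probe set detects Muc1 in these cells could not be settled without detection calls. Means were 3.94 ± 0.18 in the 4 Flattop arrays and 4.07 ± 0.23 in the 6 Lgr5_high arrays (mean ± SD), a difference of -0.13 (SE 0.15).

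The probe set annotated to both Muc20 and Muc4 did not show the group difference of the Muc4 probe set. Muc20 is a small membrane mucin that was described, in human cells, as a partner of the hepatocyte growth factor receptor Met. The shared probe set read 5.36, 5.46, 5.77 and 5.97 in Flattop replicates 1 to 4. In Lgr5_high arrays its lowest value was 5.35, its median 5.64 and its highest 5.80. The groups overlapped almost entirely, with means of 5.64 ± 0.28 in Flattop and 5.60 ± 0.15 in Lgr5_high arrays and a difference of 0.04 (SE 0.15). No value for Muc20 alone was obtained.

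**Figure D2:**
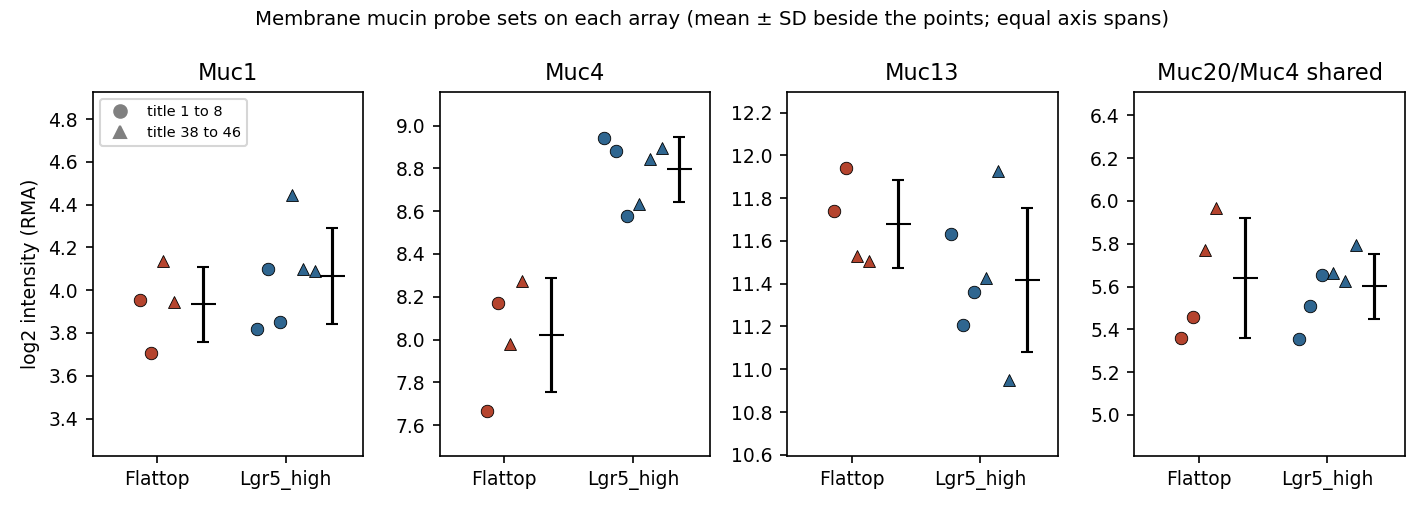
Log2 intensity (y axis, with equal spans but different positions) of the Muc1, Muc4 and Muc13 probe sets and of the probe set shared by Muc20 and Muc4. Points are arrays, 4 Flattop on the left and 6 Lgr5_high on the right of each panel; circles are titles 1 to 8, triangles titles 38 to 46, and bars the mean ± SD. The groups are apart for Muc4, with a gap of 0.30, and overlap in the other panels.

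Whether the group difference itself changed between the title ranges was tested for each probe set by an interaction term in limma, a measure that did not choose the members. No member passed. The interaction, titles 38 to 46 minus titles 1 to 8, was 0.22 (SE 0.30) for Muc4, with an adjusted p of 0.863 in limma. It was -0.36 (SE 0.39) for Muc13, with an adjusted p of 0.818, and -0.079 (SE 0.268) for Muc1, with an adjusted p of 0.950 in limma. For the shared probe set it was 0.27 (SE 0.23). Unadjusted p ranged from 0.276 for the shared probe set to 0.774 for Muc1 in this limma fit. Of all genes, 2 were called for the interaction (0.00902%), so the count of 0 members stood beside a fit that called almost nothing, and standard errors of 0.23 to 0.39 leave room for differences between the ranges.

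Array by array, the members gave correlations of both signs within their groups. After each group's mean was taken away, Pearson's r between pairs of these 4 probe sets over the 10 arrays ran from -0.52, for Muc13 and the shared probe set, to 0.40, for Muc1 and the shared probe set. For Muc4 it was -0.034 with Muc13, -0.27 with Muc1 and 0.30 with the shared probe set. The points share arrays and their overall signal, so these values only describe the arrays. The 3 genes whose group-centred values were most like those of Muc4 were Gcnt2 (r = 0.91), Entr1 (r = 0.90) and Nrf1 (r = 0.90), over 10 arrays. For Muc13 they were Ddost (0.97), Map3k15 (0.97) and Dhx38 (0.96), and for Muc1 they were Ptchd3 (0.97), Meg3 (0.95) and Lce3e (0.95), each as r over the same 10 arrays. All were picked from the 22180 genes after some classes were left out. These included predicted, clone-named, olfactory, vomeronasal, immunoglobulin, T cell receptor and small RNA genes.

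Markers of other cells moved with the groups, and their part in the member differences and in the lists described next was not tested. Of all genes, 0.902% were called higher and 0.0135% lower in Flattop at an adjusted p of 0.05. The mean log2 level of 12 T cell and intraepithelial lymphocyte genes ran from 7.98 to 10.42 in Flattop and from 4.40 to 4.84 in Lgr5_high arrays, and 10 of the 12 rose. The 8 goblet genes, most of them also secreted mucus genes and so given without a test, had list means of 11.49 to 11.98 in Flattop and 9.32 to 10.46 in Lgr5_high arrays. Of 10 absorptive enterocyte genes 6 rose, with list means of 9.95 to 11.05 in Flattop and 6.69 to 7.56 in Lgr5_high arrays. Of 6 Paneth genes 4 rose, with list means of 11.52 to 12.41 in Flattop and 7.69 to 9.39 in Lgr5_high arrays. Of 7 enteroendocrine genes 4 rose, and of 6 tuft genes 0 passed in limma. Of 4 mucosal mast cell genes 3 rose, with list means of 6.37 to 7.30 in Flattop and 4.29 to 4.76 in Lgr5_high arrays. All 10 stem cell genes had negative differences and 0 passed in limma, and without adjustment (p under 0.05) 6 were lower.

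In Flattop replicates 1 to 4 the lymphocyte means were 7.98, 8.46, 10.42 and 9.49, beside Muc4 values of 7.67, 8.17, 7.98 and 8.27. A list of 8 pan-epithelial genes, chosen after the data were seen, had means of 9.40 to 10.22 in Flattop and 9.57 to 9.90 in Lgr5_high arrays, with 0 genes past limma's threshold, 0 at an unadjusted p of 0.05 and a median difference of 0.043. With each array set to the mean of that list, the Muc4 difference was -0.89 (SE 0.25), that of Muc13 0.15 (SE 0.23) and that of Muc1 -0.25 (SE 0.26).

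**Figure D3:**
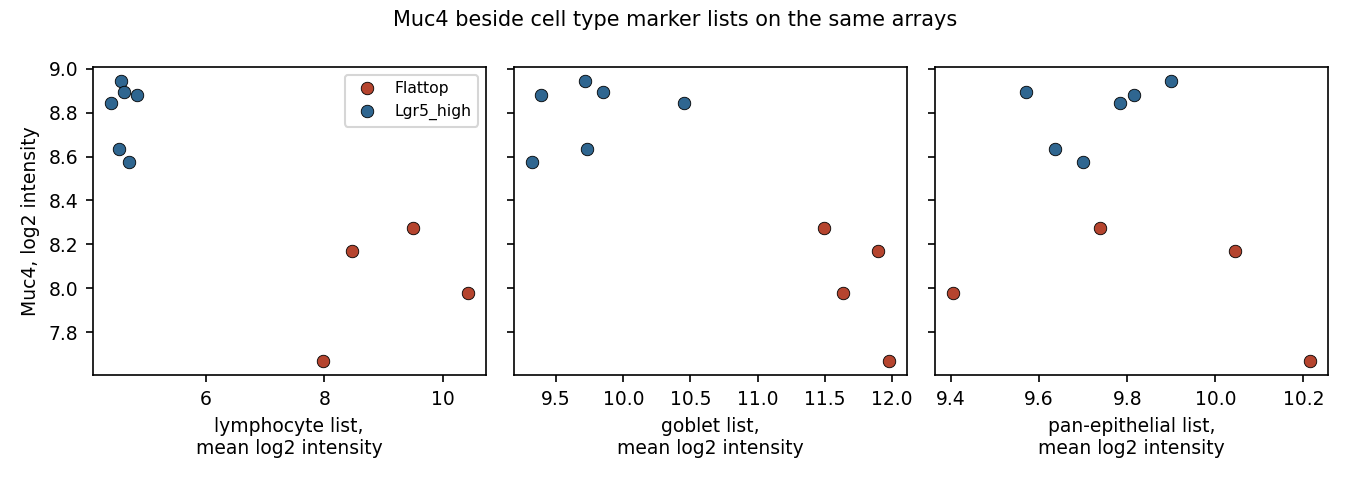
Muc4 log2 intensity (y axis) against the mean log2 intensity of the lymphocyte, goblet and pan-epithelial marker lists (x axes) on the same 10 arrays. The 4 Flattop arrays lie to the right for lymphocyte and goblet genes, from 7.98 and from 11.49 upward, and spread on both sides of the Lgr5_high arrays for pan-epithelial genes.

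Other membrane mucins were represented by 8 measured of 11 listed genes, a list that also holds the immunoglobulin-family adhesion molecule Mcam. Of the measured genes 0 passed limma's threshold in either direction, and without adjustment (p under 0.05) 1 was higher and 0 were lower. Their median difference was -0.063, next to -0.064 for all genes. Muc3, a mucin of the enterocyte brush border, read 10.41, 10.93, 10.63 and 11.70 in Flattop replicates 1 to 4. The Lgr5_high arrays ran from 9.58 to 10.57 around a median of 10.14. Its difference was 0.84 (SE 0.28, limma adjusted p = 0.312), and the groups overlapped through Flattop replicate 1. Muc3a, named after its values were seen because its sign depended on single arrays, ran from 8.68 to 10.24 in Flattop and from 8.47 to 11.19 in Lgr5_high arrays, with a difference of -0.25 (SE 0.55, limma adjusted p = 0.898). Without Lgr5_high replicate 2 that difference was 0.066. Muc3 and Muc3a are close relatives, so probes may not tell them apart. Emcn, the endothelial sialomucin endomucin, was dim, at 3.16 ± 0.17 in the 4 Flattop arrays and 3.32 ± 0.16 in the 6 Lgr5_high arrays (mean ± SD).

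Secreted mucus genes, whose higher signals were part of how the set was chosen, are described without a test. Of 13 measured genes 10 had a positive difference, and the median difference was 0.95. Muc2, the gel-forming mucin of the intestine, read 12.69, 13.03, 12.86 and 12.28 in Flattop replicates 1 to 4. The Lgr5_high arrays ran from 10.39 to 11.79 around a median of 11.24, so the groups did not overlap, and the difference was 1.51 (SE 0.27). The mucus protein Fcgbp lay at 11.90 to 12.42 in Flattop and at 9.45 to 10.46 in Lgr5_high arrays, a difference of 2.37 (SE 0.19). Clca1, a secreted metalloprotease of mucus, differed by 2.74 (SE 0.32). Zg16, a lectin-like mucus protein, lay at 11.38 to 12.20 in Flattop and spread from 3.28 to 9.15 in Lgr5_high arrays, a difference of 5.70 (SE 1.07). Spink4 differed by 0.95 (SE 0.19), the trefoil peptide Tff3 by 1.03 (SE 0.21) and the protein disulfide isomerase Agr2 by 0.88 (SE 0.23). The gel-forming mucins Muc5ac and Muc5b, named after their values were seen, overlapped between the groups, at -0.084 (SE 0.150) and -0.0028 (SE 0.161). All Muc5ac values, 3.72 to 4.25, lay under the median of all values (4.70), and those of Muc5b lay near it, at 4.56 to 5.26. Whether these probe sets detect the 2 genes in these cells could not be settled without detection calls.

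**Figure D4:**
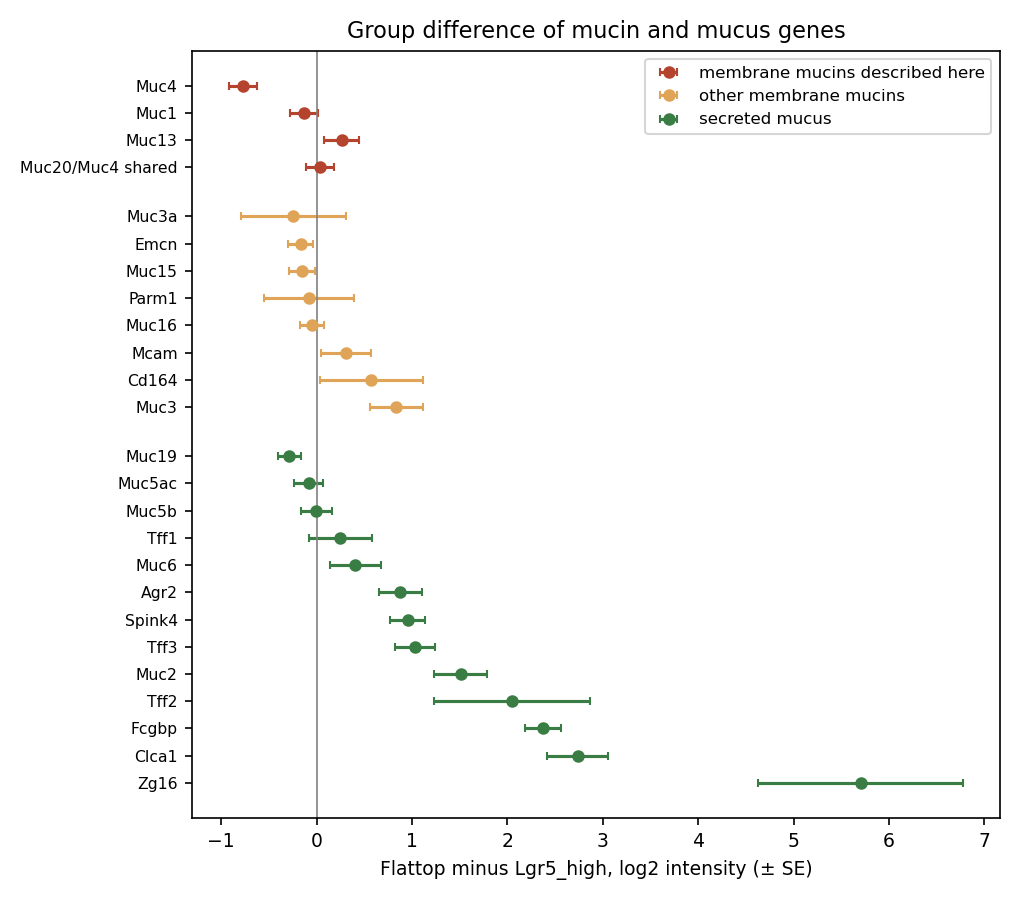
Flattop minus Lgr5_high difference in log2 intensity (x axis, with its SE as the bar) for the membrane mucins described here, other membrane mucins and secreted mucus genes, 1 gene a row. Muc4 lies at -0.77, other membrane mucins lie between -0.25 and 0.84, and Zg16 reaches 5.70.

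Enzymes of mucin O-glycosylation were represented by a list of 29 genes, all measured. The list also holds Fut8, which acts on N-glycans, and B4galnt1, which acts on gangliosides. Of the 29 genes 1 rose and 0 fell in limma, with a median difference of 0.49. St3gal1, a sialyltransferase of O-glycans, rose by 1.26 (SE 0.21, limma adjusted p = 0.0192). It missed the threshold without Flattop replicate 4 (limma adjusted p = 0.0512). The core enzyme Gcnt3 was at 1.92 (SE 0.47, limma adjusted p = 0.124) and the N-acetylgalactosaminyltransferase Galnt6 at 1.26 (SE 0.31, limma adjusted p = 0.126).

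Binding partners of membrane mucins were measured by 12 genes, and 0 passed limma's threshold, and without adjustment (p under 0.05) 2 were higher and 1 was lower. Their median difference was 0.030. Erbb2, the receptor that Muc4 binds, was named outside the rule after its values were seen. It read 8.61, 8.42, 7.49 and 7.86 in Flattop replicates 1 to 4, and 7.62 to 9.34 in Lgr5_high arrays with a median of 8.63. Its difference of -0.42 (SE 0.34, limma adjusted p = 0.709) came from groups that overlapped. Met, the receptor described with Muc20, read 7.14, 7.24, 4.61 and 5.98 in Flattop replicates 1 to 4, and 7.34 to 8.31 in Lgr5_high arrays. Its groups did not overlap and its difference was -1.57 (SE 0.46, limma adjusted p = 0.234), with -0.35 in the lower and -2.80 in the higher title range. The glycan-binding lectin Lgals3 was at 0.84 (SE 0.23, limma adjusted p = 0.174).

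Of 10 genes listed with mucin shedding, a list that also holds the non-protease Bsg, 1 rose and 0 fell. Mep1b, a subunit of the brush border protease meprin, read 6.77, 6.75, 4.24 and 6.68 in Flattop replicates 1 to 4, and 3.49 to 4.09 in Lgr5_high arrays. It rose by 2.28 (SE 0.45, limma adjusted p = 0.0451), and it passed in 1 of the 10 fits with an array left out, that without Flattop replicate 3. The Paneth cell protease Mmp7 was at 3.17 (limma adjusted p = 0.0934) and Bace2, an aspartic protease, at 1.18 (limma adjusted p = 0.113), and each passed in 1 of those 10 fits, Mmp7 without Lgr5_high replicate 2 and Bace2 without Flattop replicate 3.

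The microvilli on which membrane mucins sit were represented by a scaffold list of 13 measured genes, of which 1 rose and 0 fell, with a median difference of 0.36. Cdhr5, a mucin-like protocadherin that links microvillus tips, read 10.85, 10.54, 10.76 and 11.19 in Flattop replicates 1 to 4. The 6 Lgr5_high values ran from 8.77 to 9.69 around a median of 9.58, all under those of Flattop. It rose by 1.42 (SE 0.21, limma adjusted p = 0.00858) and passed whichever array was left out. The adaptor Slc9a3r1 was at 1.27 (limma adjusted p = 0.0683) and the actin bundler Vil1 at 0.62 (limma adjusted p = 0.0782).

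Among transcription factors described for mucin genes, 18 of 22 were measured, 1 rose and 0 fell, with a median difference of 0.14. Stat3, which acts downstream of cytokine receptors, read 7.67, 7.80, 8.38 and 8.22 in Flattop replicates 1 to 4. The 6 Lgr5_high values ran from 4.85 to 6.36 around a median of 5.99, again with no overlap. It rose by 2.16 (SE 0.29, limma adjusted p = 0.00451). Klf4, a factor of goblet and other differentiated cells, was at 1.44 (limma adjusted p = 0.0531), and the goblet factor Spdef was at 0.88 (limma adjusted p = 0.112).

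Genes that neighbour Muc4 in RefSeq (GRCm38.p6) were set beside it. Within 500 kb of Muc4, 23 other genes were measured, of which 1 rose and 0 fell, and their differences ran from -1.24, for Tctex1d2 (SE 0.62, limma adjusted p = 0.563), to 3.67, with a median of -0.097. The bile acid transporter subunit Slc51a rose by 3.67 (SE 0.36, limma adjusted p = 0.000519). The transferrin receptor gene Tfrc was at -0.96 (SE 0.31, limma adjusted p = 0.302), with -0.12 in the lower and -1.81 in the higher title range. Within the same distance of Muc13, 0 of 8 genes passed, with differences from -0.36 to 0.99. Near Muc1 on chromosome 3, 1 of 37 genes rose and 0 fell. It was Rit1, a small GTPase, at 0.99 (SE 0.16, limma adjusted p = 0.0169), and it missed the threshold without Flattop replicate 2 or 4 (limma adjusted p = 0.0538 and 0.0588).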

How the data were processed

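Expression was measured on 10 MoGene 2.0 ST arrays, 4 Flattop and 6 Lgr5_high, with RNA extracted by the miRNeasy Micro kit then amplified (Ovation Pico WTA System V2) and biotin-labelled (Encore), per the labels. What the authors deposited were log2 intensities, made with RMA in oligo 1.38.0 per the submitters' processing notes. Other steps and the genome build are not stated. The number of arrays limits the precision.

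Of 41345 probe sets, 23521 had 1 symbol in the platform annotation, 1814 several and 16010 were not listed, so unnamed here. Entrez numbers of 23328 probe sets matched RefSeq (GRCm38.p6) and 0 symbols changed. The probe set of highest mean stood for each of 22180 genes. All genes were fitted with limma 3.58.1 (lmFit, eBayes) in R 4.3.3. The fits were also run on simulated data, with added differences larger than those of the members. That run therefore does not bear on how well differences of the members' size are found. Plots used matplotlib 3.10.9. No dim probe sets were left out.

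The members, gene lists and tests were chosen with earlier results of these data known, and the promoter motifs and the pan-epithelial list after seeing the data. Named genes were the members, up to 6 genes of each list past the threshold of 0.05, up to 2 others of smallest p, neighbours within 500 kb and 3 genes of most alike pattern per member, with exceptions said in the text. Alternatives were other normalisations, a dim-gene filter (40th percentile), variance priors, array weights, blocks, title ranges, left-out arrays and probe set choices. In the main fit arrays were not paired by the replicate numbers of the titles. Correlations of same-numbered deviations over all genes were 0.30, -0.21, -0.010 and 0.029. Without different-numbered pairs beside them, they cannot settle whether the numbers mark pairs.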

Additional observations from a re-analysis of the deposited data

Results flagged for a closer look

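Within-group gaps were examined in 64 groups of named probe sets, of 4 or 6 arrays each, and 2 arrays stood apart from their group by Dixon's 95% criterion, which chance alone meets in about 1 of 20 groups. The protease gene Mep1b read 4.24 in Flattop replicate 3, where the other 3 Flattop arrays read 6.68 to 6.77. The mucus gene Clca1 read 8.60 in Lgr5_high replicate 6, where the other 5 Lgr5_high arrays read 9.61 to 9.83. No value of Muc1, Muc4, Muc13 or the probe set shared by Muc20 and Muc4 stood apart in this way.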

How the results depend on the processing

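The Muc4 difference stayed between -0.89 and -0.65 and the Muc13 difference between 0.08 and 0.44 over 22 alternatives, and that of Muc1 between -0.25 and -0.054 over 21, since Muc1 dropped out with dim genes left out. Leaving out 1 array gave -0.86 to -0.65 for Muc4, 0.17 to 0.36 for Muc13, -0.20 to -0.056 for Muc1 and -0.069 to 0.13 for the probe set shared by Muc20 and Muc4. The interaction with title range passed for no member under any alternative. Its sign turned for Muc1 without Flattop replicate 1 (0.044), Flattop replicate 4 (0.016) or Lgr5_high replicate 4 (0.038), and for Muc4 without Flattop replicate 1 (-0.034). Over all left-out arrays it ran from -0.20 to 0.044 for Muc1, from -0.034 to 0.47 for Muc4 and from -0.60 to -0.11 for Muc13. With arrays set to the pan-epithelial list, an alternative chosen after seeing the data, it was 0.34 for Muc1 and 0.058 for Muc13. The difference of Muc3a turned to 0.036 with array weights and to 0.066 without Lgr5_high replicate 2, with left-out arrays giving -0.53 to 0.066. The causes of these changes were not tested.

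Counts of listed genes past the threshold depended on the setting. Those of secreted mucus genes, which entered the choice of the set, are given for some settings as a description. Nothing is read from them. The replicate block gave 0 genes of the glycosylation, shedding, scaffold and transcription factor lists, while the member differences under this block were -0.74 for Muc4, 0.27 for Muc13 and -0.12 for Muc1. Titles 1 to 8 alone gave 3 secreted mucus genes and 0 scaffold genes and transcription factors. Titles 38 to 46 alone gave 0 glycosylation, shedding, scaffold and transcription factor genes. Fewer arrays entered these fits. A second quantile normalisation gave 2 glycosylation and 0 shedding genes, and centred arrays gave 2 scaffold and 0 shedding genes. The title range block gave 2 scaffold genes and 2 transcription factors, array weights and the removal of dim genes 2 transcription factors each, and the mean of probe sets 2 shedding genes. With arrays set to the pan-epithelial list there were 1 binding partner, 2 shedding genes and 2 transcription factors. Over left-out arrays the counts ran from 2 to 6 for secreted mucus, 0 to 1 for glycosylation, 0 to 2 for shedding and 1 to 2 for scaffold genes. Without detection calls, no floor for dim probe sets such as Muc1 could be set.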
